A study of Homo sapiens with 12 samples.

Results

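Small nucleolar RNA host genes were followed across the 4 groups of an siRNA experiment in IMR32, an established human neuroblastoma cell line with amplified MYCN. The members were the 10 rows of the deposited table named SNHG1, SNHG3, SNHG5, SNHG6, SNHG8, SNHG12, SNHG15, SNHG16, GAS5 and ZFAS1, out of 27514 listed genes, and all 10 passed the filter on low values. Cells were given siRNA that was a control (siCtrl), that targeted MYCN (siMYCN) or HAND2 (siHAND2), or that targeted the pair of them at once (siMYCN+siHAND2, called the combined knockdown). The titles name these siRNAs SiMYCN_2, SiHAND2_3 and SiM2+SiH2_3, and no other numbering appears for a target. Effects of an siRNA other than on its target were not tested. Each group had 3 samples, electroporated with a Nucleofector, kept in serum-containing growth medium and lysed for total RNA after 72 h. All samples carried a transient siRNA and came from a single cell line, and the labels do not say whether the 3 samples of a group were separate cultures, so the p-values measure the spread between these samples, which may be technical.

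A small nucleolar RNA (snoRNA) is a short noncoding RNA that guides the chemical modification or cleavage of ribosomal RNA. Most human snoRNAs lie in introns of a host gene and are released when the host transcript is spliced, so the host and its snoRNAs start from the same promoter. In the noncoding hosts the exons encode no known conserved protein. Many of them begin with a terminal oligopyrimidine tract (a C followed by further C and T bases, as in ribosomal protein genes), and spliced GAS5 is known to be degraded by nonsense-mediated decay when it is translated. MYCN is a transcription factor of the MYC family, which is known for driving ribosome production, and HAND2 is a basic helix-loop-helix factor of the adrenergic neuroblastoma state. The comparisons ask how the host genes differ after knockdown of each factor and of both.

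Estimated depth was 31.6 to 64.2 M reads per sample, and a host gene rested on an estimated 73 reads (SNHG12) to 47431 reads (SNHG16) in a sample. MYCN ranged from 964 to 1049 CPM (reads of the gene, scaled to a fixed total of all reads of the sample) in siCtrl, from 666 to 708 in siMYCN, from 802 to 899 in siHAND2 and from 433 to 555 in the combined knockdown. HAND2 ranged from 224 to 254 CPM in siCtrl, from 319 to 334 in siMYCN, from 54.3 to 67.7 in siHAND2 and from 67.1 to 86.3 in the combined knockdown. The knockdowns were thus partial, and on these deposited values MYCN was lower with both siRNAs than in siMYCN. HAND2 was higher in siMYCN than in siCtrl. The part of these differences in the comparisons between groups was not tested. Of 8 neuroblastoma markers 7 had a mean of at least 1 CPM, and TH did not. None of the 4 leukocyte or 3 epithelial markers reached that mean, and 1 of 5 fibroblast markers and 1 of 3 endothelial markers did (COL1A1 and CDH5). The summed fibroblast markers ranged from 7.20 to 9.14 CPM in siCtrl, 6.31 to 7.36 in siMYCN, 1.29 to 1.99 in siHAND2 and 0.976 to 1.28 in the combined knockdown, and the endothelial ones from 0.551 to 0.776, 2.05 to 2.82, 0.886 to 1.45 and 1.19 to 1.92. Their part in the changes of the host genes was not tested. The share of reads lying in the listed genes fell from 65.1% ± 0.74 (SD, n = 3) in siCtrl to 62.4% ± 0.98 in siMYCN and 59.4% ± 2.39 in siHAND2. The combined knockdown had 51.4% ± 7.04, from 44.3 to 58.4%. CPM counts all reads in its denominator, so the tests of the host genes are given as deposited and again after rescaling. In the rescaling a sample is divided by its median ratio to the other samples. Changes and medians not marked as rescaled are as deposited. The median log2 change of all 12680 tested genes against siCtrl was 0.0056 in siMYCN, −0.14 in siHAND2 and, with both siRNAs, −0.28. It was 0.014, 0.013 and 0.047 after rescaling.

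The 5′ ends of 7 host genes are shown because many noncoding hosts are known to begin with a C and T tract. Each line runs from 10 bases before the deposited start to the 30th base of the transcript, read from the hg19 (GRCh37) reference, and the longest run of C and T bases is in capitals.
SNHG1 (chr11:62623331-62623370, minus strand): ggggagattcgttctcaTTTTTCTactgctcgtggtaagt
SNHG3 (chr1:28832445-28832484, plus strand): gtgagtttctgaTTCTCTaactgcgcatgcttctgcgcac
SNHG5 (chr6:86388422-86388461, minus strand): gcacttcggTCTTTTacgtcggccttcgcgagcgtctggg
SNHG8 (chr4:119199907-119199946, plus strand): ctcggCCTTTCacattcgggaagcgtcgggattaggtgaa
SNHG16 (chr17:74553836-74553875, plus strand): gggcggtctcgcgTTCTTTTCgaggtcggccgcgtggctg
GAS5 (chr1:173837096-173837135, minus strand): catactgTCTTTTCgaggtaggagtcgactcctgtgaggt
ZFAS1 (chr20:47894705-47894744, plus strand): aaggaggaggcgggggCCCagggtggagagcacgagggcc

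Of these 7 hosts 6 held a run of at least 6 C or T bases in the 40 bases, against 34.6% of 27409 listed genes with a window of the same length. The longest run was the 8 bases of SNHG16, and GAS5 and SNHG1 held 7. At least 7 bases were held by 3 of the 7 hosts and by 22.4% of listed genes. At least 8 were held by 1 of the 7 (14.3%) and by 14.8% of listed genes, so the difference depends on the length taken. ZFAS1 held none longer than 3, at the start its row gives. The runs were taken anywhere in the 40 bases, so they are not a count of terminal tracts. No marked run began exactly at the deposited start. Those of SNHG5, SNHG8 and GAS5 began before it (−1, −5 and −3), and the others after its first base (positions 3 to 8). From its deposited start on, SNHG5 read CTTTT, a C followed by T bases, while GAS5 read TTTC and SNHG8 a C before an A. The starts are as deposited, and a host can have others.

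The sequence CACGTG is the E-box that MYC family proteins are known to bind, and it reads the same on both strands. It was searched within 500 bases on either side of each deposited start of 6 hosts (SNHG1, SNHG5, SNHG8, SNHG16, GAS5 and ZFAS1) and occurred at 3 of them, against 17.3% of the 27409 listed genes. The base composition of the windows was not matched. The 4 matches are shown in capitals with 10 bases on either side, each with its distance from the start.
SNHG5, 161 (chr6:86388276-86388301, minus strand): tgaaagcttgCACGTGggaaacgtgc
SNHG8, 196 (chr4:119200102-119200127, plus strand): gccgggcgtcCACGTGcagccctgga
GAS5, −206 (chr1:173837316-173837341, minus strand): agcacggcatCACGTGgacggtcatg
GAS5, 409 (chr1:173836702-173836727, minus strand): ggtggtagtcCACGTGcttaagtgcc
CATCTG, an E-box of the kind HAND2 is known to bind, occurred on either strand at 3 of the 6 hosts (SNHG8, SNHG16 and GAS5) and at 41.2% of listed genes. Neither motif contains the other. The GAS5 promoter is printed because GAS5 moved in opposite directions with the 2 siRNAs (250 bases before the start and 50 from it, with the E-box in capitals), and 7.60% of listed genes held CACGTG in a window of these 300 bases.
GAS5 promoter (chr1:173837076-173837375, minus strand): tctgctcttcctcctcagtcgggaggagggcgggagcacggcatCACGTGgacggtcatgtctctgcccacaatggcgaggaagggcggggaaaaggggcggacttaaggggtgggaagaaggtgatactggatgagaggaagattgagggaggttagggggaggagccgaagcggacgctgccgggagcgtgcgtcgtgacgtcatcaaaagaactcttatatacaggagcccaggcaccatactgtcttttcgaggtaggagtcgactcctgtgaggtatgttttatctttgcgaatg
A match is a run of letters in the reference, not a measured binding site.

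To compare levels between hosts, the siCtrl CPM was divided by the exon length of the GENCODE transcript whose ends lay closest to the row. SNHG16, described in neuroblastoma under the name ncRAN, stood highest at 329 ± 14.1 CPM per kb (SD, n = 3), followed by GAS5 at 145 ± 18.0 and SNHG6 at 69.7 ± 4.29. ZFAS1 (41.1 ± 3.56), SNHG1 (40.4 ± 2.62), SNHG8 (36.9 ± 2.99) and SNHG5 (34.1 ± 1.88) came next, and the sample ranges of each neighbouring pair among these overlapped. SNHG15 (15.6 ± 1.59), SNHG3 (9.63 ± 0.97) and SNHG12 (3.16 ± 0.19) were the lowest and did not overlap. The host genes have between 3 and 91 annotated transcripts each, whose exon lengths run from 185 to 6166 bases, so this order depends on the transcript taken.

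MYCN knockdown lowered 9 of the 10 host genes. The median log2 change of the 10 was −0.63 in siMYCN against siCtrl, while 17.4% of all tested genes were called higher and 16.3% lower (limma adjusted p under 0.05). Every siMYCN sample lay below every siCtrl sample for 29.6% of tested genes, and above for 31.4%. SNHG3, host of the U17 snoRNA that takes part in ribosomal RNA cleavage, and SNHG5, host of the U50 snoRNAs, fell most. The SNHG3 row lies wholly inside RCC1 on the same strand, so its level is uncertain. ZFAS1, the host of the SNORD12 family, was the single member not called (limma adjusted p 0.13), and it was called lower with only these 2 groups fitted (adjusted p 0.023) or without combined replicate 3 (0.044). In RNA from bulk cells, less RNA per cell and fewer cells with a high level cannot be told apart.

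SNHG3 had 19.2, 23.4 and 21.1 CPM in the siCtrl samples and 9.70, 12.3 and 11.3 CPM in the siMYCN samples. All siMYCN samples lay below all siCtrl samples, at 52.4% of the siCtrl mean (log2 change −0.88, SE 0.12, limma adjusted p 2.3e-06). SNHG5 had 33.9, 30.4 and 32.7 CPM in siCtrl and 19.5, 15.3 and 17.6 CPM in siMYCN. It too fell without overlap, to 54.0% (−0.86, SE 0.11, limma adjusted p 1.9e-06). GAS5, a growth arrest transcript and the host with the most snoRNA rows here, had 79.8, 64.4 and 81.3 CPM in siCtrl and 46.5, 43.3 and 47.2 CPM in siMYCN. Its siMYCN samples were tightly grouped and well under siCtrl, at 60.7% (−0.70, SE 0.12, limma adjusted p 5.4e-05). SNHG16 had 762, 814 and 827 CPM in siCtrl and 537, 604 and 573 CPM in siMYCN. This fall to 71.3% (−0.49, SE 0.14, limma adjusted p 0.0074) was no longer called when genes of low values were also tested (adjusted p 0.088).

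The other falls had the same form. SNHG1 had 37.7, 33.5 and 37.6 CPM in siCtrl and 24.6, 24.0 and 24.1 CPM in siMYCN. SNHG8, host of SNORA24, had 16.4, 18.7 and 19.0 CPM in siCtrl and 9.87, 10.5 and 11.8 CPM in siMYCN. SNHG15, host of SNORA9, had 18.1, 15.5 and 18.9 CPM against 10.6, 9.44 and 10.6 CPM. No siMYCN sample of these 3 genes reached a siCtrl sample, and they changed by −0.56, −0.70 and −0.72 on the log2 scale (adjusted p by limma 3.3e-04, 2.4e-05 and 4.7e-05). SNHG12 had 4.23, 4.11 and 4.60 CPM in siCtrl and 2.02, 3.02 and 2.81 CPM in siMYCN. SNHG6, host of SNORD87, had 32.4, 29.9 and 33.8 CPM in siCtrl and 24.9, 24.5 and 24.3 CPM in siMYCN. Both changed without overlap, SNHG12 by −0.56 (limma adjusted p 0.0020) and SNHG6 by −0.37 (adjusted p 0.0092), and the SNHG6 call was lost without siCtrl replicate 3 (adjusted p 0.057).

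ZFAS1 had 36.3, 31.9 and 37.7 CPM in siCtrl and 32.8, 27.2 and 29.6 CPM in siMYCN, and the groups overlapped. Its log2 change was −0.23 (95% confidence interval −0.48 to 0.01, limma adjusted p 0.13). The value passed the threshold when only these 2 groups were fitted (adjusted p 0.023) and without combined replicate 3 (0.044). After rescaling, the same 9 of 10 calls were made, with a median of −0.62 (25.4% of tested genes higher and 22.4% lower).

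**Figure D1:**
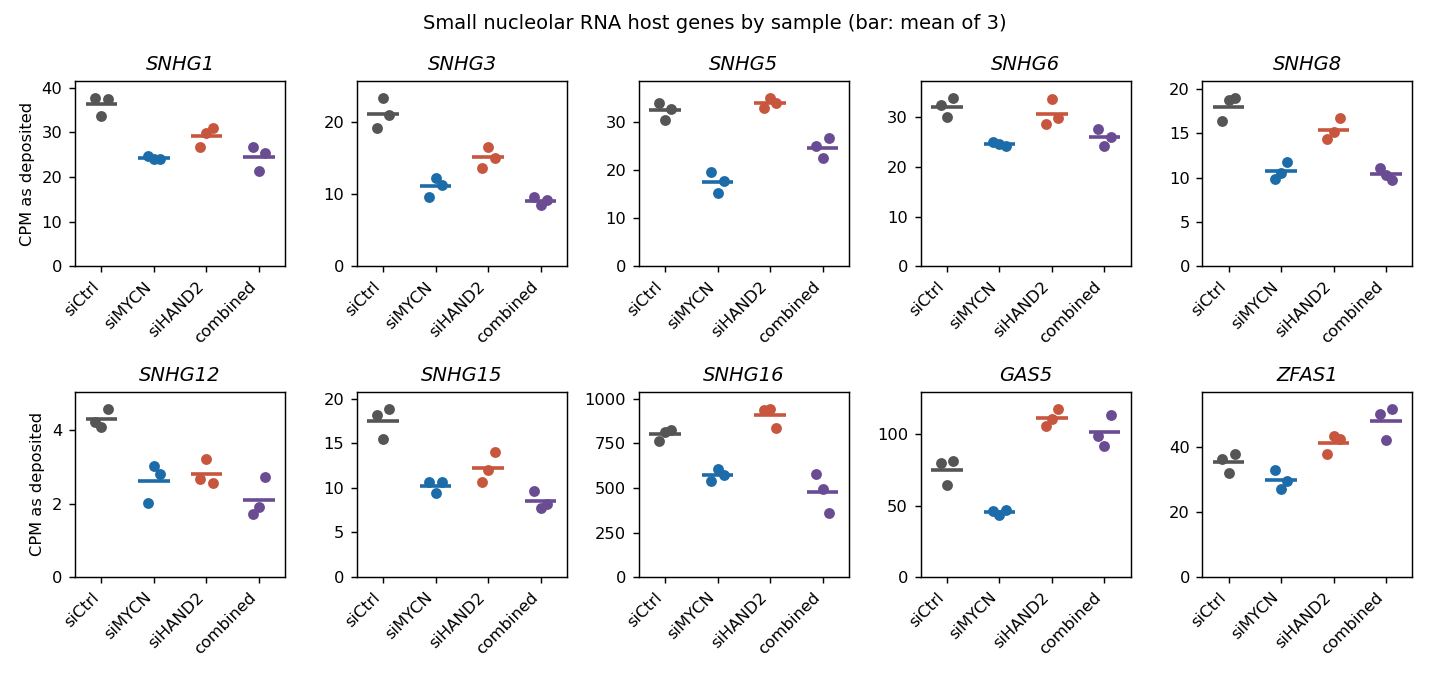
Each panel plots the deposited CPM of a host gene (vertical axis from 0) in the 3 samples of each group, with a bar at the group mean. GAS5 lies below siCtrl in siMYCN and above it in siHAND2 and the combined knockdown, whereas SNHG1, SNHG3, SNHG12 and SNHG15 lie below siCtrl in all 3 knockdowns.

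With HAND2 knockdown host genes were called in both directions. GAS5 rose, while SNHG1, SNHG3, SNHG12 and SNHG15 fell, and the other 5 were not called. Of all tested genes 12.3% were called higher and 30.4% lower in siHAND2 against siCtrl. The members' counts, 1 higher and 4 lower of 10, lie near these shares. Their median log2 change was −0.14, as was that of all tested genes. On the rescaled values GAS5, SNHG16 and ZFAS1 were called higher and only SNHG3 and SNHG15 lower. These counts too lie near the shares of all tested genes, 26% higher and 24.8% lower. On the deposited values the siHAND2 samples all lay above siCtrl for 17.8% of tested genes and all below for 45%.

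GAS5 reached 106, 111 and 118 CPM in the siHAND2 samples. The lowest of these stood above the highest siCtrl sample, and the mean was 148% of siCtrl (log2 change 0.57, SE 0.12, limma adjusted p 3.8e-04; 0.73 after rescaling, adjusted p 5.1e-04). ZFAS1 had 38.0, 43.5 and 42.6 CPM, just above the siCtrl samples, a change of 0.22 (limma adjusted p 0.12) that became 0.38 (0.019) after rescaling. SNHG16 had 941, 946 and 836 CPM, also above siCtrl in every sample, a change of 0.18 (limma adjusted p 0.30) that became 0.34 (0.0021). Neither was called on the deposited values with all samples, and ZFAS1 was called there with only these 2 groups fitted (adjusted p 0.034) or without combined replicate 3 (0.047).

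SNHG15 had 10.6, 12.0 and 14.0 CPM in siHAND2, all below siCtrl, at 69.7% of its mean (−0.49, limma adjusted p 0.0018; rescaled −0.34, adjusted p 0.023, with overlapping samples). SNHG3 had 13.7, 16.6 and 15.1 CPM, at 71.4% (−0.46, limma adjusted p 0.0023; rescaled −0.31, adjusted p 0.036). These were the falls called on both scales. SNHG12 had 2.68, 3.21 and 2.56 CPM, a change of −0.48 (limma adjusted p 0.0056; rescaled −0.35, adjusted p 0.093; adjusted p 0.058 with genes of low values also tested). SNHG1 had 26.7, 29.8 and 30.9 CPM, a change of −0.31 (limma adjusted p 0.028; rescaled −0.15, adjusted p 0.24). The SNHG1 call was also lost without siCtrl replicate 1 or 3 or siHAND2 replicate 1 or 2 (adjusted p 0.11, 0.10, 0.14 and 0.059).

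SNHG5, SNHG6 and SNHG8 were not called on either scale in siHAND2. SNHG5 had 32.9, 34.9 and 33.9 CPM, overlapping siCtrl (0.07, 95% confidence interval −0.16 to 0.30). SNHG6 had 28.6, 33.5 and 29.8 CPM (−0.07, −0.29 to 0.15), and its sign turned to 0.089 after rescaling. SNHG8 had 14.4, 15.2 and 16.7 CPM (−0.21, −0.44 to 0.01), and it was called when only these 2 groups were fitted (adjusted p 0.047).

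In the combined knockdown every host gene was called against siCtrl, 8 lower and 2 higher. The 2 risers were GAS5 and ZFAS1, and SNHG3 and SNHG15 fell most. Across all tested genes 17.4% were called higher and 50.1% lower, and 16.7% and 48.3% had all 3 samples above or below siCtrl. The members' median log2 change was −0.65 against −0.28 for all genes. After rescaling, 2 were called higher and 5 lower, with 37.8% and 32.9% of tested genes and a members' median of −0.31.

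GAS5 had 98.5, 91.7 and 114 CPM and ZFAS1 had 50.1, 42.0 and 51.8 CPM in the combined knockdown. All 3 samples of either gene lay above all siCtrl samples. GAS5 rose by 0.43 (SE 0.12, limma adjusted p 0.0026), and so did ZFAS1 (0.43, SE 0.12, adjusted p 0.0023). On the rescaled values both changed by 0.78 (adjusted p 1.3e-04 for GAS5 and 5.0e-05 for ZFAS1), at 176% of the siCtrl mean for each. A rise is therefore seen for these 2 genes on both scales, while the tested genes as a whole moved down on the deposited scale.

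SNHG3 had 9.70, 8.52 and 9.18 CPM in the combined knockdown, 43.1% of siCtrl (−1.13, SE 0.12, limma adjusted p 4.2e-09; rescaled −0.79, adjusted p 2.0e-05). SNHG15 had 9.69, 7.72 and 8.14 CPM, 48.7% of siCtrl (−0.96, SE 0.12, limma adjusted p 1.2e-07; rescaled −0.63, adjusted p 1.9e-04). SNHG12 had 1.71, 1.90 and 2.73 CPM (−0.78, limma adjusted p 1.5e-05; rescaled −0.51, adjusted p 0.014). The deposited values of these hosts lay below siCtrl in all 3 samples. The rescaled SNHG12 samples overlapped siCtrl, and that call was lost without combined replicate 1 or 2 (adjusted p 0.075 and 0.050). SNHG8 had 11.1, 10.3 and 9.77 CPM (−0.74, limma adjusted p 1.8e-06; rescaled −0.41, adjusted p 0.0019). SNHG16 had 580, 497 and 360 CPM, in the order of the 3 samples' share of reads in listed genes (58.4, 51.4 and 44.3%). Its change was −0.77 (limma adjusted p 2.4e-05; rescaled −0.41, adjusted p 2.6e-04), and the part of that share in the spread was not tested.

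The remaining 3 falls were not called after rescaling. SNHG1 had 26.7, 21.4 and 25.3 CPM (−0.55, limma adjusted p 1.0e-04; rescaled −0.20, adjusted p 0.094). SNHG5 had 24.9, 22.4 and 26.5 CPM (−0.38, limma adjusted p 0.0041; rescaled −0.033, adjusted p 0.81). SNHG6 had 27.6, 24.1 and 26.0 CPM (−0.30, limma adjusted p 0.017; rescaled 0.052, adjusted p 0.62). For SNHG6 the sign turned with the rescaling, and the call was lost without siCtrl replicate 1 or 3 or combined replicate 2 (adjusted p 0.057, 0.081 and 0.082) and with only these 2 groups fitted (0.11).

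**Figure D2:**
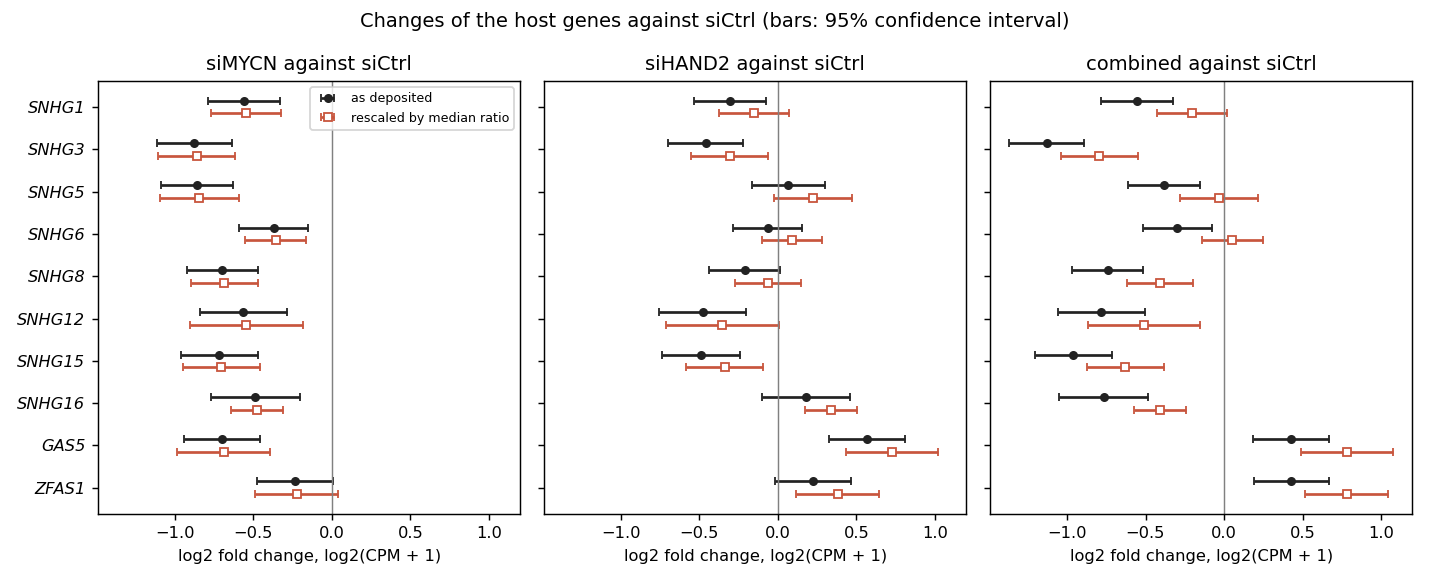
The log2 change on the log2(CPM + 1) scale (horizontal axis) of each host gene against siCtrl in the 3 knockdowns, with its 95% confidence interval, as deposited (filled circles) and after rescaling by the median ratio (open squares). The 2 scales nearly coincide in siMYCN and lie furthest apart in the combined knockdown, where SNHG6 is at −0.30 on the deposited values and at 0.052 on the rescaled ones.

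Adding the HAND2 siRNA to the MYCN siRNA raised 3 host genes over siMYCN alone. GAS5 was 1.13 higher in the combined knockdown than in siMYCN on the log2 scale (SE 0.12, limma adjusted p 1.3e-08), with its lowest combined sample at 91.7 CPM and its highest siMYCN sample at 47.2 CPM. ZFAS1 was 0.66 higher (SE 0.12, limma adjusted p 3.6e-05) and SNHG5 0.47 higher (SE 0.11, limma adjusted p 8.4e-04). No member was called lower with all samples, where 8.92% of tested genes were called higher and 50% lower. After rescaling, SNHG1, SNHG6 and SNHG8 joined the higher ones (0.34, 0.41 and 0.28, with adjusted p 0.012, 0.0015 and 0.027), against 30.1% of tested genes higher and 26.5% lower. Without combined replicate 1, GAS5, ZFAS1 and SNHG5 were called higher and SNHG3, SNHG15 and SNHG16 lower on the deposited values (limma adjusted p 0.029, 0.017 and 0.0047 for the lower ones), where 8.61% of tested genes were higher and 62.1% lower. SNHG3 was also called lower without siMYCN replicate 1 (adjusted p 0.033) and SNHG12 without combined replicate 3 (0.026).

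Adding the MYCN siRNA to the HAND2 siRNA lowered 5 host genes, against 31.5% of tested genes lower and 8.75% higher in the combined knockdown over siHAND2. SNHG16 fell by 0.94 (SE 0.14, limma adjusted p 7.2e-06), SNHG3 by 0.67, SNHG8 by 0.53, SNHG15 by 0.47 and SNHG5 by 0.45 (limma adjusted p 6.3e-05, 4.7e-04, 0.0030 and 0.0024). GAS5 changed by −0.14 (95% confidence interval −0.38 to 0.10, limma adjusted p 0.35). After rescaling the SNHG5 call was lost (adjusted p 0.083) and ZFAS1 was called higher (0.40, adjusted p 0.014), where 26.1% of tested genes were higher and 23.6% lower. When samples were scaled to their sum over listed genes the SNHG15 call was lost as well (adjusted p 0.056). On the deposited values SNHG1 was also called lower without combined replicate 1 or 3 (adjusted p 0.012 and 0.034), SNHG6 without combined replicate 1 (0.015) and SNHG12 without combined replicate 3 (0.010).

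Set side by side, the single knockdowns differed in 7 host genes, all lower in siMYCN than in siHAND2 (8.98% of tested genes were called lower and 26.1% higher). GAS5 differed most at −1.27 (SE 0.12, limma adjusted p 4.2e-09), followed by SNHG5 at −0.92 (limma adjusted p 4.0e-07) and SNHG16 at −0.67 (limma adjusted p 4.5e-04). SNHG8 (−0.48), ZFAS1 (−0.46), SNHG3 (−0.41) and SNHG6 (−0.30) were the others. SNHG1 (−0.25), SNHG15 (−0.23) and SNHG12 (−0.08) were not called with all samples, and SNHG1 was called without combined replicate 1 or 3 (adjusted p 0.023 each). After rescaling 9 were lower, all but SNHG12, against 22.2% of tested genes lower and 22.3% higher. The SNHG6 call was lost when any of 5 libraries was left out, siMYCN replicate 1, 2 or 3 or siHAND2 replicate 2 or 3 (adjusted p 0.073, 0.089, 0.095, 0.16 and 0.063), and the SNHG3 call without siMYCN replicate 1 or siHAND2 replicate 2 (0.065 and 0.054).

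The interaction asks whether an siRNA has the same effect with and without the other. It was above 0 for 9 of the 10 host genes, SNHG16 being the exception at −0.46, while 2836 of the 12680 tested genes were above 0 (6133 of 12693 after rescaling). The value was 0.56 for GAS5 (SE 0.17, limma adjusted p 0.057), 0.44 for ZFAS1 (adjusted p 0.13) and 0.41 for SNHG5 (adjusted p 0.15). No member was called on the deposited values, where 0.355% of tested genes were called higher and 3.65% lower. At an unadjusted p under 0.05, 3 members were positive and 1 negative, against 2.26% and 19.2% of tested genes. After rescaling, GAS5 (0.75, adjusted p 0.037), ZFAS1 (0.63, adjusted p 0.049) and SNHG5 (0.59, adjusted p 0.049) were called higher, against 1.69% of tested genes higher and 4.46% lower. The GAS5 call on the deposited values also came when single libraries were left out (adjusted p 0.041 without siCtrl replicate 2, and 0.013, 0.050 and 0.041 without combined replicate 1, 2 and 3). Without combined replicate 1, GAS5, ZFAS1 and SNHG5 were called positive and SNHG16 negative, where 1.47% of tested genes were positive and 33.6% negative.

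**Figure D3:**
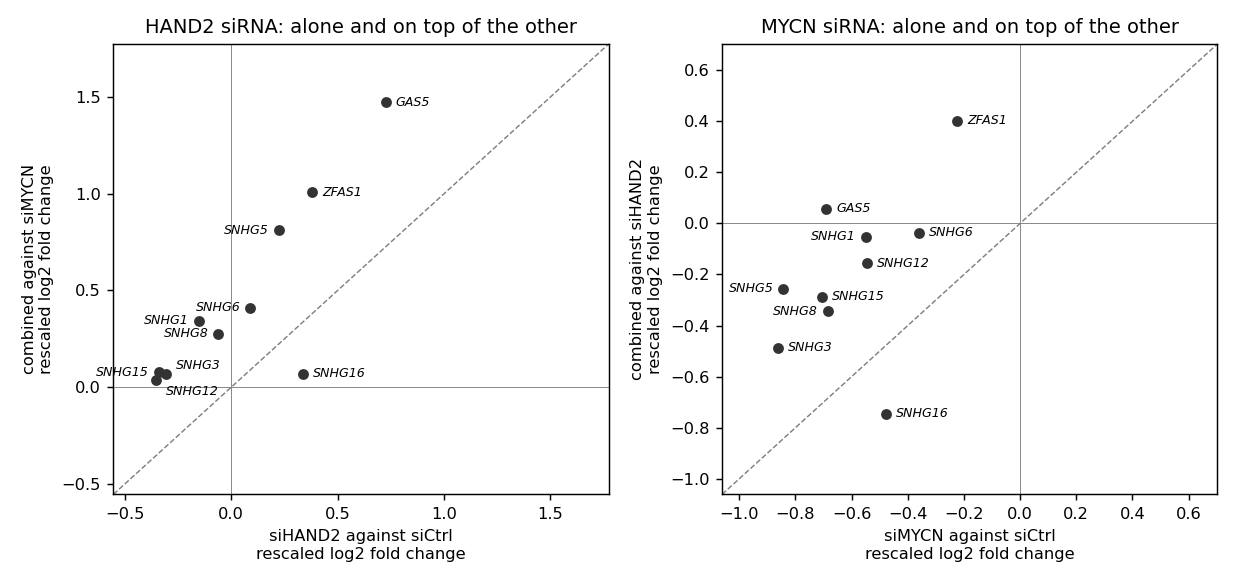
The rescaled log2 change of each host gene with an siRNA given alone (horizontal axis) and given on top of the other siRNA (vertical axis), for the HAND2 siRNA on the left and the MYCN siRNA on the right. The dashed line marks equal changes, and 9 of 10 genes lie above it in both panels, with SNHG16 below. The vertical distance from the line is the interaction in either panel, so the count on the right repeats that on the left.

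The ratio of a host to its fellow members does not depend on the scale. GAS5 stood 1.25 ± 0.15 log2 units (SD, n = 3) above the geometric mean of the other 9 hosts in siCtrl and 1.18 ± 0.07 in siMYCN, where the samples overlapped. In siHAND2 it stood 2.02 ± 0.08 above them, and with both siRNAs 2.32 ± 0.14, and all 6 of these samples were above all siCtrl samples. ZFAS1 was level with the others in siCtrl (0.04 ± 0.08), and its ratio was 0.50 ± 0.17 in siMYCN and 0.43 ± 0.03 in siHAND2, and 1.12 ± 0.09 with both siRNAs, each without overlap. SNHG3 went from −0.78 ± 0.21 in siCtrl to −1.09 ± 0.18 in siMYCN, with overlap, and to −1.19 ± 0.08 in siHAND2 and −1.54 ± 0.03 with both siRNAs, without overlap. SNHG12 (−3.33 ± 0.03 in siCtrl, −3.88 ± 0.16 in siHAND2 and −3.91 ± 0.39 with both) and SNHG15 (−1.09 ± 0.10, −1.54 ± 0.17 and −1.65 ± 0.12) were likewise below siCtrl without overlap in these 2 groups and overlapped it in siMYCN. SNHG5 went from −0.10 ± 0.07 in siCtrl to 0.11 ± 0.04 in siHAND2 and 0.05 ± 0.08 with both siRNAs, without overlap. In siHAND2 and the combined knockdown GAS5, ZFAS1 and SNHG5 thus stood higher against the other hosts than in siCtrl, whichever scale is used. SNHG3, SNHG12 and SNHG15 stood lower in both groups. Of these 2 groups, SNHG16 stood higher and SNHG1 lower without overlap only in siHAND2. SNHG6 stood higher and SNHG8 lower without overlap only with both siRNAs. In siMYCN, SNHG16 (5.05 ± 0.09 in siCtrl and 5.23 ± 0.09 in siMYCN) and SNHG6 (−0.11 ± 0.03 and 0.19 ± 0.06) also stood above siCtrl without overlap.

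Across the 12 samples, which share their 4 groups and their scaling, the log2 levels of SNHG1 and SNHG15 were correlated at r = 0.95 and those of SNHG3 and SNHG8 at 0.95. GAS5 and ZFAS1 were correlated at 0.88 with each other. ZFAS1 had its lowest value with SNHG12 (−0.34), and GAS5 its lowest with the same gene (−0.09). Outside the members and the lists used here, the 5 genes of 10114 whose profile was most like the members' mean over the 12 samples were RPL38 (r = 0.988), CCNB1IP1 (0.984), TRIT1 (0.981), RPS6 (0.980) and RPL36 (0.979). RPL38, RPS6 and RPL36 encode ribosomal proteins, and TRIT1 encodes a tRNA-modifying enzyme.

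The snoRNAs themselves were scarcely covered by these libraries. Of 35 snoRNA rows inside the 10 hosts on the same strand, 11 in GAS5 and 8 in SNHG1 among them, 24 never exceeded 0.1 CPM and 11 of these stood at the deposited constant of 0.0001 in all samples. SNORA73B in SNHG3 and SNORA24 in SNHG8 were the 2 with a mean of at least 1 CPM, against 48 of 521 snoRNA rows in the whole table. Both are of the box H/ACA class, whose sequence ends with an ACA a few bases before the 3′ end. They are shown with that ACA in capitals, since they are the snoRNA rows with the highest means.
SNORA73B (chr1:28835070-28835274, plus strand): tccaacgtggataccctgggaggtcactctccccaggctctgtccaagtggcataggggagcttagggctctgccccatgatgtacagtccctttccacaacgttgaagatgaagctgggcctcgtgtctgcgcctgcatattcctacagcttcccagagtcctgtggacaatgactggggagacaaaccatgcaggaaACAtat
SNORA24 (chr4:119200345-119200475, plus strand): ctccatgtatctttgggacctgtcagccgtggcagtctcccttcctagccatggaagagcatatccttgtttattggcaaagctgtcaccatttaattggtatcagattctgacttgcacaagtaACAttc

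SNORA73B, at 205 bases the longest of the 35, had 188, 123 and 148 CPM in siCtrl, 135, 98.3 and 102 in siMYCN, 171, 142 and 149 in siHAND2 and 121, 162 and 211 in the combined knockdown. The groups overlapped, and the siMYCN change of −0.44 (limma adjusted p 0.043) was lost after rescaling (0.14). Its log2 ratio to its host SNHG3 was 2.83 ± 0.45 (SD, n = 3) in siCtrl and 4.13 ± 0.45 in the combined knockdown, without overlap. SNORA24 had 1.95, 1.57 and 1.97 CPM in siCtrl and 1.11, 1.11 and 1.27 in siMYCN, a change of −0.39 (limma adjusted p 0.017; rescaled −0.37, adjusted p 0.032). It had 1.30, 1.29 and 1.48 CPM in siHAND2 and 0.935, 1.35 and 1.32 in the combined knockdown, also all below siCtrl (−0.26, adjusted p 0.086, and −0.37, adjusted p 0.011), and neither was called after rescaling (0.31 and 0.33). Its ratio to its host SNHG8 overlapped siCtrl in all 3 knockdowns. Reads of an unspliced host cannot be told apart from reads of the snoRNA in these rows, SNORA73B has a near-identical copy, SNORA73A, and the retention of such short RNAs by the column kit was not tested. SNHG3 and SNORA73B both lie inside RCC1 on the same strand, which limits their ratio.

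In 3 hosts another gene starts close by on the opposite strand. SNHG1 starts 124 bases from SLC3A2, which encodes a chain of amino acid transporters, and GAS5 starts 95 bases from ZBTB37, a zinc finger gene. ZFAS1 and ZNFX1, a helicase gene, overlap by 42 bases at their starts. ZBTB37 had 6.44, 7.37 and 6.40 CPM in siCtrl and 7.25, 8.40 and 8.94 CPM in siMYCN, with overlap. It had 8.45, 7.53 and 7.57 CPM in siHAND2 and 8.15, 8.47 and 8.00 CPM in the combined knockdown, above siCtrl in every sample, as GAS5 was. Its log2 ratio to GAS5 was −3.48 ± 0.30 (SD, n = 3) in siCtrl and −2.48 ± 0.17 in siMYCN, without overlap, and −3.83 ± 0.16 and −3.62 ± 0.20 in siHAND2 and the combined knockdown, with overlap. The ratio of SLC3A2 to SNHG1 likewise stood above siCtrl in siMYCN (0.69 ± 0.20 and 1.05 ± 0.05) and overlapped in the other groups. That of ZNFX1 to ZFAS1 overlapped siCtrl in every group. Ratios were computed for 6 pairs in all, and none was given a test.

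**Figure D4:**
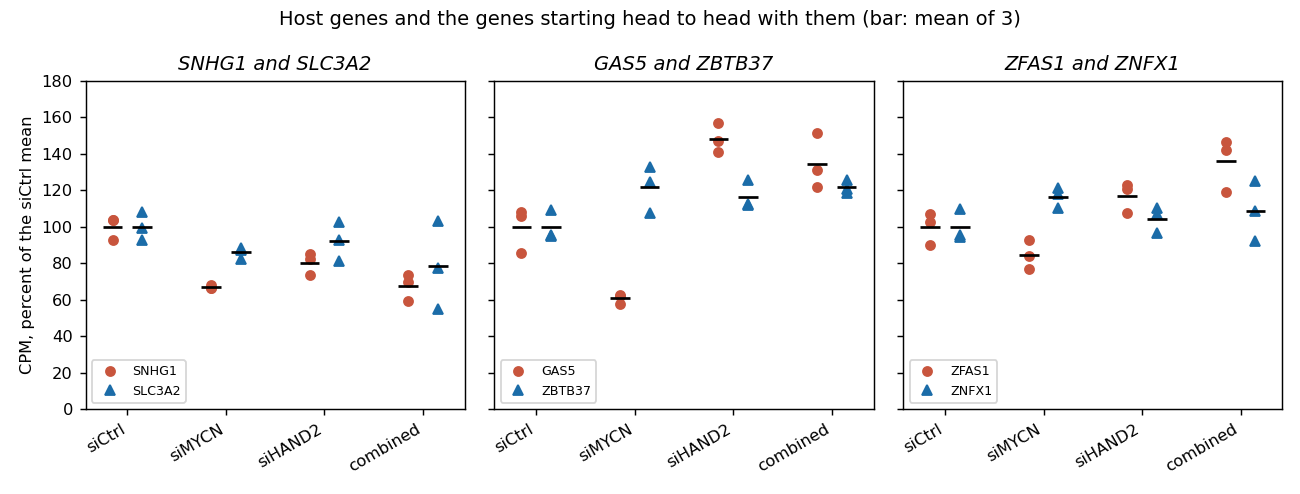
CPM as a percent of the gene's own siCtrl mean (vertical axis) in the 3 samples of each group, for a host gene (circles) and the gene that starts beside it on the opposite strand (triangles), with bars at the means. In siMYCN all GAS5 samples lie below their siCtrl samples while the ZBTB37 samples overlap theirs, and in siHAND2 and the combined knockdown both genes lie above siCtrl.

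Overlapping rows limit some of these values, because whether counting used the strand is not given in the sources used here. SNHG3 lies wholly inside RCC1 on the same strand (4950 shared bases), so its level is uncertain. RCC1 itself changed by −0.73, −0.69 and −1.53 in siMYCN, siHAND2 and the combined knockdown (limma adjusted p 3.2e-05, 3.5e-05 and 1.9e-11). Its log2 ratio to SNHG3 was 0.70 ± 0.19 (SD, n = 3) in siCtrl. The ratio was 0.88 ± 0.14 in siMYCN and 0.47 ± 0.12 in siHAND2, with overlap, and 0.29 ± 0.25 with both siRNAs, without overlap. On the opposite strand SNHG6 shares 119 bases with MCMDC2, SNHG12 8 bases with TRNAU1AP, and GAS5 41 bases with GAS5-AS1, which had 3.94 ± 0.96 CPM (SD, n = 3) in siCtrl. The rows MIR5096, FAM72C and SRGAP2D join several places of chromosome 1, so their spans are not read as overlaps.

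Other genes of the snoRNA pathway were set beside the hosts. Their counts are read against the shares of all tested genes called lower in siMYCN, siHAND2 and the combined knockdown (16.3, 30.4 and 50.1%; rescaled 22.4, 24.8 and 32.9%) and higher (17.4, 12.3 and 17.4%; rescaled 25.4, 26 and 37.8%). Of 31 protein-coding snoRNA hosts, many of them ribosomal protein genes, 25 were called lower and 1 higher in siMYCN, with a median log2 change of −0.47. In siHAND2, 1 was lower and 2 higher (median 0.0019), and in the combined knockdown 19 were lower and 1 higher (median −0.36). After rescaling these counts were 28 lower and 1 higher, 1 and 10, and 10 and 8. NCL, encoding nucleolin, changed by −0.67, −0.40 and −1.60 in siMYCN, siHAND2 and the combined knockdown (limma adjusted p 4.8e-04, 0.020 and 1.7e-10). RPL12 changed by −0.89 (limma adjusted p 1.2e-06), 0.10 (0.52) and −0.68 (7.9e-06), and RPS2 by −0.74 (3.9e-05), −0.09 (0.58) and −0.93 (2.5e-07). HSPA8, a chaperone gene, changed by −0.25 (limma adjusted p 0.17), −0.24 (0.18) and −0.93 (2.2e-06). The host called higher in siMYCN and in the combined knockdown was EIF4A2, a translation factor gene (0.47 and 0.69), and EIF4A2 and EEF2 were those called higher in siHAND2 (0.36 each). EIF4A2 and EEF2 were named after their values were seen.

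Of 16 other noncoding hosts 14 were tested. In siMYCN 7 fell and none rose, with all 14 changes below 0, in siHAND2 4 fell and 2 rose, and in the combined knockdown 9 fell and 1 rose (rescaled 8 and 0, 3 and 3, and 4 and 3). In siHAND2 these counts lie near the shares of all tested genes, 30.4% lower and 12.3% higher. SNHG10 changed by −0.52, −0.63 and −0.99 and was called in all 3. EPB41L4A-AS1 changed by −0.13 in siMYCN (limma adjusted p 0.36), rose by 0.62 in siHAND2 (5.0e-05) and rose by 0.55 in the combined knockdown (7.7e-05). DANCR changed by −0.18 (limma adjusted p 0.28), −0.39 (0.013) and −0.82 (2.8e-06), and SNHG7 by −0.42 (0.0028), −0.04 (0.76) and −0.35 (0.0047). SNHG14, named after its values were seen, was the other riser in siHAND2 (0.41, limma adjusted p 0.0057). SNHG29, listed as LRRC75A-AS1, was called higher in siHAND2 and the combined knockdown only after rescaling (0.42 and 0.51, adjusted p 0.0082 and 0.0012).

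Genes of the proteins that assemble with snoRNAs, or of the machinery of that assembly, were mostly called lower. The box C/D particle methylates ribosomal RNA, and its list held 11 genes of its proteins and its assembly machinery. Of these 11, 8, 8 and 10 were called lower in siMYCN, siHAND2 and the combined knockdown and none higher (rescaled 9, 8 and 10). Of all tested genes 16.3, 30.4 and 50.1% were lower. The medians of the 11 were −0.40, −0.42 and −1.14. FBL, the methyltransferase fibrillarin, changed by −0.77, −0.37 and −1.47, and NOP56, a core protein of the particle, by −0.70, −0.66 and −1.43. RUVBL1 (−0.59, −0.55 and −1.30) and NUFIP1 (−0.59, −0.47 and −1.25) belong to its assembly machinery. Of 6 genes of the box H/ACA particle, which makes pseudouridine, and of its assembly, 5, 5 and 6 were called lower and none higher (rescaled 5, 4 and 6). DKC1, the pseudouridine synthase dyskerin, changed by −0.92, −0.55 and −1.74, and GAR1 by −0.65, −0.43 and −1.37. SHQ1, a dyskerin assembly factor (−0.30, −0.45 and −1.06), and NHP2 (−0.58, −0.38 and −1.05) were called in all 3 as well.

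Nonsense-mediated decay is the pathway that degrades spliced GAS5. Of 10 of its genes 1, 1 and 6 were called lower and none higher in siMYCN, siHAND2 and the combined knockdown, with medians of −0.13, −0.15 and −0.41. The count in the combined knockdown lies near the 50.1% of all tested genes called lower there, and that in siHAND2 lies under the 30.4%. After rescaling 2, 1 and 2 were lower, and 1 was higher in the combined knockdown, with medians of −0.12, 0.0026 and −0.062. UPF1, the central helicase, changed by −0.12 (limma adjusted p 0.48), −0.15 (0.34) and −0.56 (2.7e-04), and UPF2 by −0.20 (0.19), −0.16 (0.28) and −0.43 (0.0021). UPF3B changed by −0.50 (limma adjusted p 0.010), −0.31 (0.092) and −0.66 (3.1e-04), and UPF3A by −0.06 (0.75), −0.40 (0.012) and −0.52 (7.3e-04). GAS5 and ZFAS1 themselves were above siCtrl in the combined knockdown on both scales, and a link to the decay genes was not tested. The 3 comparisons share the siCtrl samples, so their values are given side by side without a test of likeness.

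**Figure D5:**
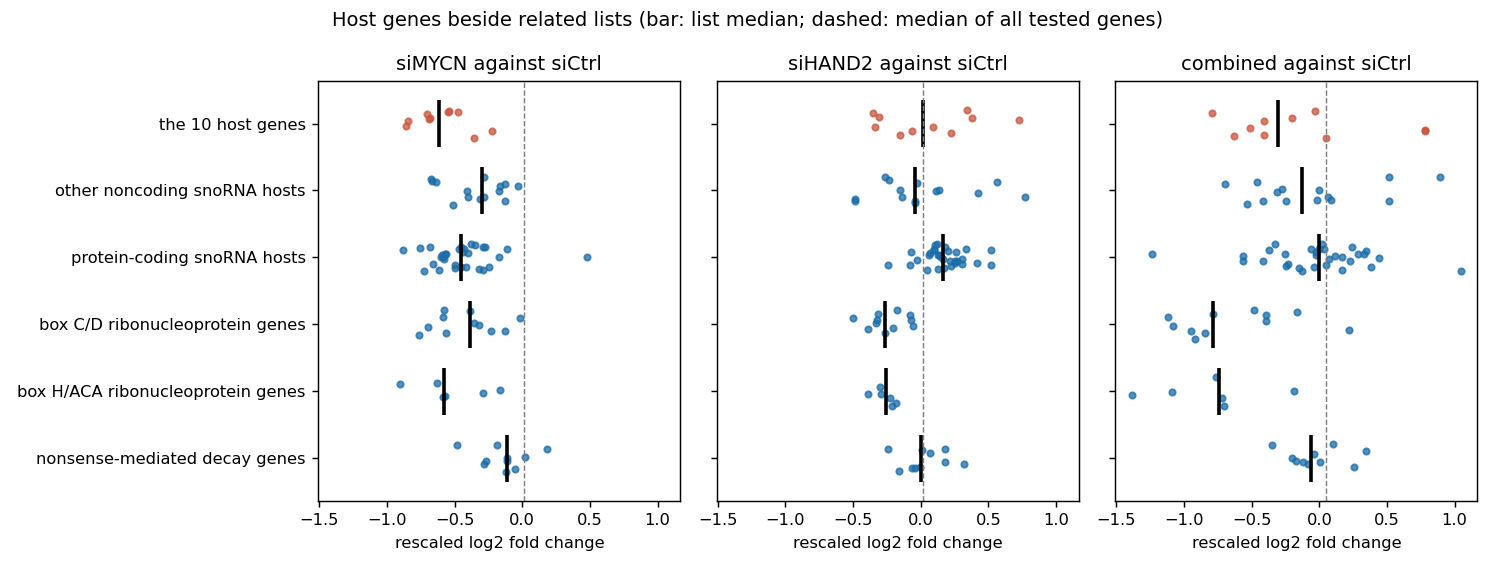
The rescaled log2 change against siCtrl (horizontal axis) of each tested gene of the 10 host genes (top row) and of 5 related lists in the 3 knockdowns, with a bar at the list median and a dashed line at the median of all tested genes. In the combined knockdown both snoRNA protein lists have medians below −0.7, the protein-coding hosts lie around 0, and GAS5 and ZFAS1 coincide at 0.78.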

How the data were processed

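RNA sequencing of 12 IMR32 samples was analysed from a table of CPM that the authors deposited, with 1 column per sample. Per the submitters' processing notes, STAR 2.5.1 and Partek were used with the hg19 (GRCh37) build. The annotation, counting settings, strand and filters are not given in the sources used here. A constant of 0.0001 had been added to each deposited value. Depth was taken from the most frequent low value, less the constant, which was read as 1 read. Below 20 reads, 88.9 to 90.5% of values came out whole (within 0.05), so no count test was run.

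The members and gene lists were chosen with earlier results of these data known. Values were tested as log2(CPM + 1), for 12680 genes with a mean of at least 1 CPM, with limma 3.58.1 in R 4.3.3 (lmFit, then eBayes with trend; 4 groups, 8 residual degrees of freedom, two-sided). A gene was called when its p, adjusted by Benjamini-Hochberg over all tested genes, was under 0.05. Fold changes on this scale understate changes of low genes. The script recovered known changes on simulated data. Rescaling divided each sample by the median of its ratios to the per-gene geometric mean, taken over genes averaging at least 5 CPM.

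Genes were named by rule: members, targets, genes inside, overlapping or starting within 1000 bases of a member, up to 4 per list with the largest called change and a mean of at least 5 CPM, and the 5 most similar profiles. Same-numbered samples deviated together in siMYCN and siCtrl (r = 0.44, 0.15 and 0.31) and in siMYCN and siHAND2 (r = 0.33, 0.14 and 0.32), and the titles give the numbers. Deposited ends lay 1 base past the annotated end in 7501 of 23666 matched rows and were equal in 817, so 1 was subtracted. The sequences of SNHG6, SNHG12 and SNHG15 and a motif search of SNHG3 are not reported here.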

Additional observations from a re-analysis of the deposited data

Results flagged for a closer look

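In 3 host genes the effect of an siRNA differed with the other siRNA present, by the interaction term on the rescaled values (limma, Benjamini-Hochberg adjusted). The HAND2 siRNA raised GAS5 by 0.75 more log2 units on top of the MYCN siRNA than alone (adjusted p 0.037). The difference was 0.63 for ZFAS1 (adjusted p 0.049) and 0.59 for SNHG5 (adjusted p 0.049). On the deposited values none of the 3 passed the threshold with all samples and group alone in the fit (adjusted p 0.057, 0.13 and 0.15). With the replicate number also in the fit GAS5 passed it there (limma adjusted p 0.012). The rescaled interaction was not refitted with single libraries left out.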

How the results depend on the processing

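Of 70 member values, 10 genes in 7 comparisons, rescaling by the median ratio changed 17 calls, leaving out combined replicate 1 changed 10 and combined replicate 3 changed 7. For the combined knockdown against siMYCN, 3 members were called as deposited, 6 after rescaling, 5 when scaled to the listed genes' sum and 6 with rescaling and block, all higher. With the replicate block alone 5 were called, 3 higher and 2 lower (SNHG3 and SNHG16, adjusted p 0.041 and 0.044), where 9.92% of tested genes were higher and 53.7% lower. For the interaction 0 were called as deposited, 3 after either rescaling, 1 with the block and 6 with rescaling and block (SNHG1, SNHG8 and SNHG15 joining, adjusted p 0.024, 0.026 and 0.043). Leaving out each library gave 3 to 6 members called as deposited for the combined knockdown against siMYCN, and 4 to 6 after rescaling. It gave 6 to 8 for the combined knockdown against siCtrl after rescaling, and 0 to 4 for the interaction as deposited. The rescaled leave-one-out fits were added after seeing the data, and none was made for the interaction. SNHG6 changed sign in siHAND2 (0.089 rescaled, 0.063 by the sum, 0.089 with rescaling and block) and in the combined knockdown against siCtrl (0.052, 0.043 and 0.052), where the rescaled leave-one-out values that turned were 0.051, 0.052, 0.053, 0.094 and 0.11. SNHG5 in the combined knockdown turned to 0.061 and 0.041 after rescaling without combined replicate 1 or 2. The cause was not tested. Counts for the other comparisons stayed within 1.5 times under every alternative run on the deposited values. The replicate block alone changed 4 of the 70 calls and no sign: those of SNHG3 and SNHG16, SNHG12 in the combined knockdown against siHAND2 (adjusted p 0.045) and GAS5 in the interaction (0.012). Outside the 2 comparisons of the processing section same-numbered samples correlated unevenly (r from −0.19 to 0.42). For siHAND2 and siCtrl r was 0.32, −0.07 and 0.42, and whether the numbers mark pairs was not tested. A fit with only the compared groups could not be made for the interaction. SNHG12 rested on the fewest reads.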
